A study of Mus musculus with 7 samples.

Results

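Ion channel genes were followed in mouse neural stem cells of 3 genotypes. The members are the genes of the deposited table whose symbols start with Kcn or Cacn, or have the form Scn, a number and a final a or b, with Kcnq1ot1 left out. This gave 116 of the 18145 genes: 79 of the potassium, 25 of the calcium and 12 of the sodium channel families. By symbol, 79 of the 116 encode pore-forming subunits, 34 encode auxiliary subunits or regulators, and 3 (Kcnab3os, Kcnd3os and Kcnmb4os2) are opposite-strand transcripts. All 116 passed the filter on low values. RNA came from cells at passage 1, in 7 libraries of separate lines per the design text: 3 lines of wild-type genotype (WT), 2 labelled Tet-TFoCa (TFoCa) and 2 labelled Tet-TMut (TMut). The labels name neither the alleles of the mutant genotypes nor the oxidation step of the TET enzymes that each affects. Single libraries are called WT1 to WT3, TFoCa1, TFoCa2, TMut1 and TMut2 by genotype and replicate. With 2 lines a mutant genotype, p-values measure the spread between these few lines.

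Voltage-gated channels open when the membrane potential changes. Sodium channels and high-voltage calcium channels carry inward current that depolarises a cell, and potassium channels carry outward current that brings it back to rest. A pore-forming subunit sets the ion and the gating, and auxiliary subunits set its trafficking to the membrane and the kinetics of its current. Neural stem cells are electrically quiet with a potassium-dominated resting potential. The sets of Kv, Nav and Cav subunits that fire action potentials and release transmitter are built up as neurons differentiate.

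Each library held between 33340167 and 62545457 reads in genes. Of 11 neural stem cell markers all were detected in every library, with summed levels of 154735 to 162754 normalized counts in WT, 141056 to 144933 in TFoCa and 125602 to 145311 in TMut. Vim made up most of the TMut sums (113661 and 101256); the other 10 markers summed to 89179 to 94445 in WT, 56144 and 56296 in TFoCa, and 31650 and 24347 in TMut. Markers of other cell types were detected too. Neuron markers (15 genes) summed to 76808 to 81765 normalized counts in WT, 57565 to 63526 in TFoCa and 11937 to 20410 in TMut. Fibroblast and mesenchyme markers (10 genes) summed to 155227 to 171657, 423271 to 484647 and 280176 to 375355 in the same order. The 7 microglia and macrophage markers are not listed in the deposited table, so they were not analysed. In such bulk samples, fewer cells of a type and less RNA per cell cannot be told apart.

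**Figure D1:**
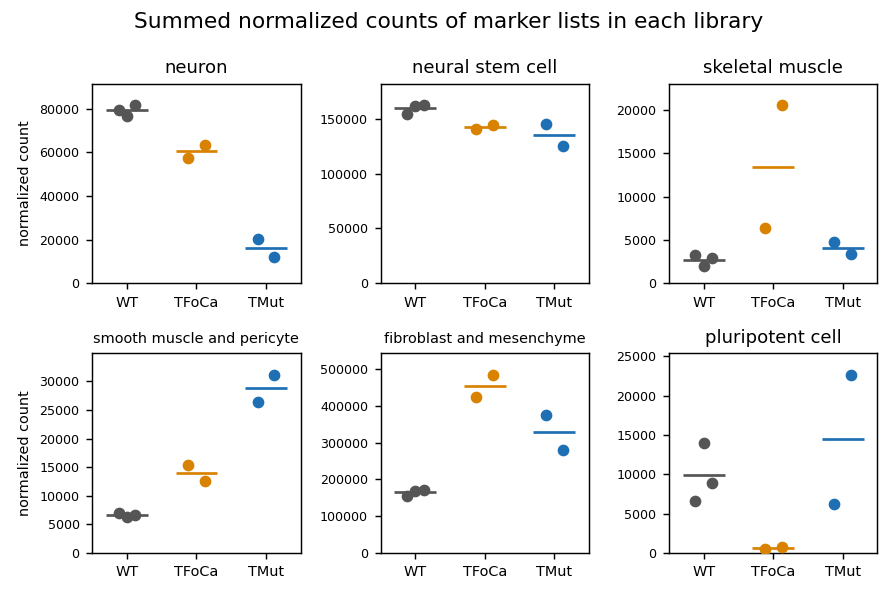
Summed normalized counts (vertical axis, linear from 0) of the genes of 6 marker lists in each library, by genotype. Points are libraries and bars are group means; the neuron sum is lowest in the 2 TMut libraries (11937 and 20410) and the skeletal muscle sum is highest in the 2 TFoCa libraries (6323 and 20606).

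In WT cells the highest members per length were calcium channel genes. Levels between genes are compared only as normalized counts per kilobase of exon, from annotated lengths of another genome build. Cacng7, one of the gamma subunit genes whose products mostly serve AMPA receptors as auxiliary subunits, was first with a mean level of 1825 per kilobase. Cacng4, a gene of the same group, followed with 1268, and Cacnb3, a cytoplasmic beta subunit of high-voltage calcium channels, with 1174. The highest pore-forming subunit was Cacna1g, the low-threshold T-type channel Cav3.1, at 402 per kilobase. The highest potassium channel gene was Kcnh2, the ERG channel, at 396, and the highest sodium channel gene was Scn3b, a beta subunit, at 249. In TMut the level of Scn3b was 55.9 per kilobase.

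The comparison of TMut with WT asks what the TMut genotype changes in these genes. Of the 116 members 53 fell (45.7%) and 11 rose (9.48%), where 20.4% of the 18134 genes tested fell and 18.4% rose. The median log2 fold change was -0.85 over the members and 0.002 over all genes tested. Libraries of the 2 genotypes did not overlap for 90 members (77.6%), against 67.1% of all genes tested. By ion, 30 of 79 potassium, 16 of 25 calcium and 7 of 12 sodium channel genes fell, and 8, 1 and 2 rose. Among pore-forming subunits 35 of 79 fell and 8 rose, and among auxiliary subunits and regulators 17 of 34 fell and 3 rose. Of the 53 that fell, 38 were called again without each library in turn. Leaving out a TFoCa or TMut library leaves 1 in that group, which is then assumed to vary like the other groups. The lowest count was 40, in a fit to replicates 1 and 2 with the replicate number as a block. The count of 11 that rose became 7 without WT1 and 7 without WT3. All fold changes here are log2 values on normalized counts plus 1, with their standard error, from limma over the 7 libraries, and p was adjusted by the Benjamini-Hochberg method across every gene tested.

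**Figure D2:**
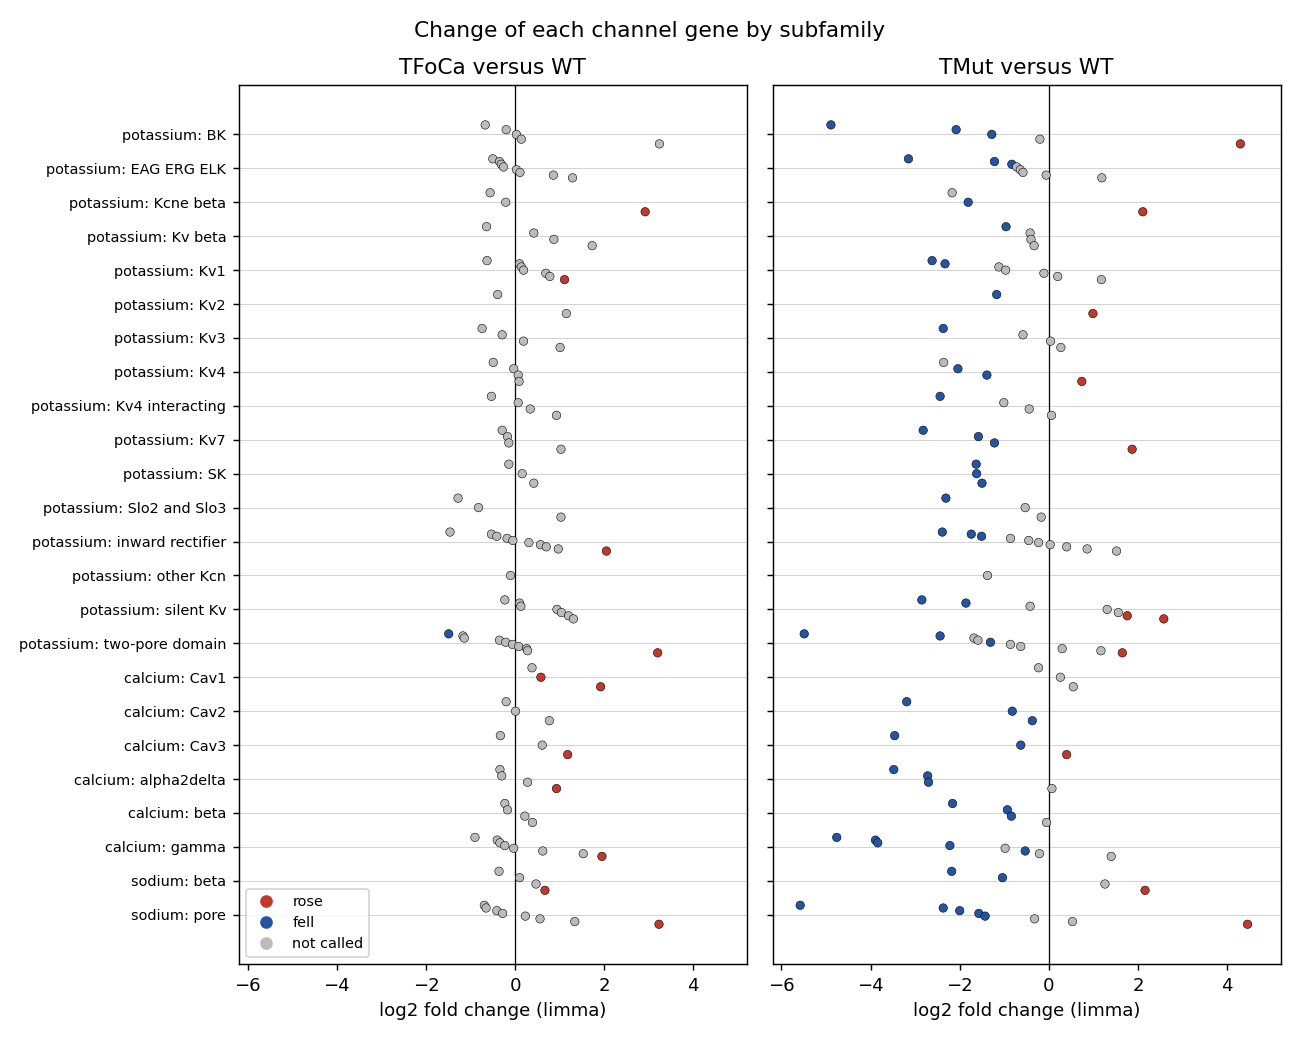
Log2 fold change (horizontal axis) of each of the 116 members in TFoCa versus WT (left) and TMut versus WT (right), in rows by ion and subfamily; red and blue points are genes that rose or fell at an adjusted p under 0.05, and grey points were not called. Both panels share the WT libraries; 53 points are blue on the right and 1 on the left.

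The Kv7 channels carry the M-current, which limits repetitive firing, and genes of this family went both ways in TMut. Kcnq3, an M-current subunit, had 198, 223 and 186 normalized counts in WT and 71.4 and 62.4 in TMut. Both TMut libraries lay below every WT library, a log2 fold change of -1.58 ± 0.32 (adjusted p = 0.00712). Kcnq5, a subunit found in neurons and in smooth muscle, had 53.3, 45 and 48.3 normalized counts in WT, 99.6 and 101 in TFoCa, and 170 and 191 in TMut, a change of 1.87 ± 0.26 (adjusted p = 0.00134) in TMut.

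The Kv4 (A-type) genes went both ways in TMut. Kcnd3 (Kv4.3), an A-type channel, had 876, 914 and 744 normalized counts in WT, 1178 and 576 in TFoCa, and 210 and 197 in TMut. Its TMut libraries were about equal and below all others, at -2.04 ± 0.28 (adjusted p = 0.00132). Kcnd1 (Kv4.1), of the same family, had 306, 330 and 311 normalized counts in WT, 335 and 338 in TFoCa, and 570 and 490 in TMut, with both TMut libraries highest, at 0.74 ± 0.16 (adjusted p = 0.00855). Kcnip1, a calcium-binding partner of Kv4 channels, fell by 2.44 log2 units (adjusted p = 0.00299), while Kcnip3, a member of that group that also acts in the nucleus, had 298, 335 and 342 normalized counts in WT, 439 and 385 in TFoCa, and 354 and 325 in TMut and was not called. Among the Kv3 channels of fast-spiking neurons Kcnc1 had 671, 889 and 812 normalized counts in WT and 230 and 98.4 in TMut, a change of -2.37 ± 0.34 (adjusted p = 0.00163). Kcnb2, a delayed rectifier of the Kv2 family, had 55.7, 50.1 and 50.6 normalized counts in WT and 129 and 84 in TMut, at 0.99 ± 0.30 (adjusted p = 0.0328). Its rise was lost without WT1, WT2, WT3 or TMut1 (adjusted p = 0.0646, 0.0974, 0.0947 and 0.163).

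The Kv1 genes, whose products sit on axons, were low and 2 of 7 fell. Kcna2 had 104, 98.9 and 113 normalized counts in WT and 27.6 and 14.4 in TMut, at -2.33 ± 0.36 (adjusted p = 0.00221). Kcna3 had 40.8, 43.7 and 40.3 normalized counts in WT and 20.7 and 1.2 in TMut, at -2.62 ± 0.85 (adjusted p = 0.043); its call was lost without WT1, WT2, WT3, TFoCa1, TFoCa2 or TMut2 (adjusted p = 0.0938, 0.104, 0.101, 0.0527, 0.0523 and 0.134). The change was -1.61 with a pseudocount of 8, -4.27 without TMut1 and -0.97 without TMut2, and neither edgeR (adjusted p = 0.0909) nor the fit to these 2 genotypes alone (adjusted p = 0.0536) called it. Of the EAG, ERG and ELK channels 3 of 8 fell. Kcnh2 had 1680, 1966 and 2104 normalized counts in WT, 1421 and 1657 in TFoCa, and 950 and 1209 in TMut, a change of -0.83 ± 0.15 (adjusted p = 0.00482) with no overlap between WT and TMut. Kcnab2, a cytoplasmic beta subunit of Kv1 channels, had 1154, 999 and 961 normalized counts in WT and 589 and 479 in TMut, at -0.96 ± 0.19 (adjusted p = 0.00632), and the other 3 members of that group were not called. Kcne4, a single-span subunit that inhibits Kv1 and Kv7 channels, had 73.7, 101 and 78.2 normalized counts in WT and 27.6 and 19.2 in TMut, at -1.81 ± 0.42 (adjusted p = 0.0119). Its call ended without WT2 or TMut2 (adjusted p = 0.051 and 0.0686).

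All 3 genes of the small-conductance calcium-activated (SK) channels, which act in the afterhyperpolarisation, fell in TMut, and so did 3 of 5 genes of the BK group. Kcnn1 had 750, 909 and 988 normalized counts in WT, 1060 and 902 in TFoCa, and 342 and 238 in TMut, at -1.62 ± 0.20 (adjusted p = 0.000905). Kcnn3 and Kcnn2 also fell, at log2 changes of -1.63 and -1.50 (adjusted p = 0.00278 and 0.0111); the call of Kcnn2 was lost without TMut1 (adjusted p = 0.0546). Kcnma1, the pore of the large-conductance BK channel, had 168, 154 and 163 normalized counts in WT, 256 and 124 in TFoCa, and 55.3 and 25.2 in TMut, at -2.08 ± 0.42 (adjusted p = 0.00684). Its auxiliary subunits differed. Kcnmb2, which makes BK channels inactivate, was at 0 in both TMut libraries, against 36.9, 22.8 and 27.6 normalized counts in WT. Most low counts in these libraries are even numbers, so the floor was set, after seeing the data, at 3 pairs of reads (6 reads) over the group. Against it Kcnmb2 was at least 8.25-fold lower in TMut than in WT (log2 change of -3.04 or lower), which covers counting error only. Kcnmb1, the BK subunit of smooth muscle, had 0, 5.07 and 0 normalized counts in WT, 26.8 and 9.74 in TFoCa, and 29.9 and 40.8 in TMut, a rise of 4.30 ± 0.92 (adjusted p = 0.00846) from 8 reads over the 3 WT libraries; without TMut2 (adjusted p = 0.055) it was not called, and with a pseudocount of 8 the change was 2.19. Kcnmb4, the neuronal subunit, had 193, 158 and 183 normalized counts in WT, 276 and 118 in TFoCa, and 165 and 144 in TMut and its WT and TMut libraries overlapped. The opposite-strand transcript Kcnmb4os2 fell by 1.28 (adjusted p = 0.0495), a call lost without WT1, WT2, WT3, TMut1 or TMut2 (adjusted p = 0.116, 0.141, 0.0809, 0.0557 and 0.233), and under edgeR, voom and TMM factors (adjusted p = 0.0624, 0.0693 and 0.0525). Of its exon bases 34.22% are shared with Kcnmb4 on the other strand (20.85% of those of Kcnmb4), where reads of the pair cannot be told apart.

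Background potassium channels of the two-pore family, which set the resting potential, gave 3 falls and 1 rise of 10 genes. Kcnk10 (TREK-2) had 775, 865 and 987 normalized counts in WT, 335 and 466 in TFoCa, and 53 and 6 in TMut. The TMut libraries differed from each other, yet both were below every TFoCa and WT library, at -5.49 ± 0.72 (adjusted p = 0.00109). Kcnk2 (TREK-1), a mechanosensitive channel of the same subgroup, had 916, 1093 and 860 normalized counts in WT, 733 and 762 in TFoCa, and 238 and 127 in TMut, at -2.44 ± 0.26 (adjusted p = 0.00046). An opposite-strand transcript shares 12.22% of the exon bases of Kcnk2, and reads in that stretch cannot be told apart, as the strand setting of the counting is not given in the sources used here. Kcnk12 fell by 1.31 (adjusted p = 0.0234), lost without WT1, WT2 or TMut2 (adjusted p = 0.0735, 0.0778 and 0.124). Kcnk6 rose by 1.65 (adjusted p = 0.0306), lost without WT1, WT3 or TMut2 (adjusted p = 0.08, 0.0874 and 0.173). Of the 10 inward rectifiers 3 fell. Kcnj10 (Kir4.1), the glial channel that buffers potassium, had 157, 138 and 159 normalized counts in WT, 310 and 195 in TFoCa, and 66.8 and 40.8 in TMut, at -1.51 ± 0.32 (adjusted p = 0.00796). Kcnj11, the pore of the KATP channel, fell by 1.74 (adjusted p = 0.00333), and Kcnj9, a G protein-gated channel, fell by 2.39 (adjusted p = 0.0129). Without TMut2 the change of Kcnj9 was -3.32 and without TMut1 it was -1.47. Kcnj8, the KATP pore of pericytes, had 189, 207 and 230 normalized counts in WT, 191 and 29.2 in TFoCa, and 136 and 231 in TMut. Only TFoCa2 stood apart, and no comparison was called.

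Silent Kv subunits, which form channels only together with Kv2 proteins, went both ways: 2 of 7 fell and 2 rose. Kcnf1 had 207, 325 and 253 normalized counts in WT and 76 and 64.8 in TMut, at -1.86 ± 0.26 (adjusted p = 0.0013), and Kcns2 fell by 2.85 (adjusted p = 0.00239; -1.75 with a pseudocount of 8). Kcns1 had 8.63, 5.07 and 4.6 normalized counts in WT and 32.3 and 50.4 in TMut, at 2.58 ± 0.51 (adjusted p = 0.0063), and Kcng3 had 7.85, 5.07 and 11.5 normalized counts in WT and 20.7 and 39.6 in TMut, at 1.76 ± 0.55 (adjusted p = 0.0375). The call of Kcng3 ended without WT1, WT2, WT3 or TMut2 (adjusted p = 0.0815, 0.116, 0.0517 and 0.208). Kcng1, of the same group, had 238, 216 and 234 normalized counts in WT, 184 and 342 in TFoCa, and 170 and 170 in TMut and was not called.

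**Figure D3:**
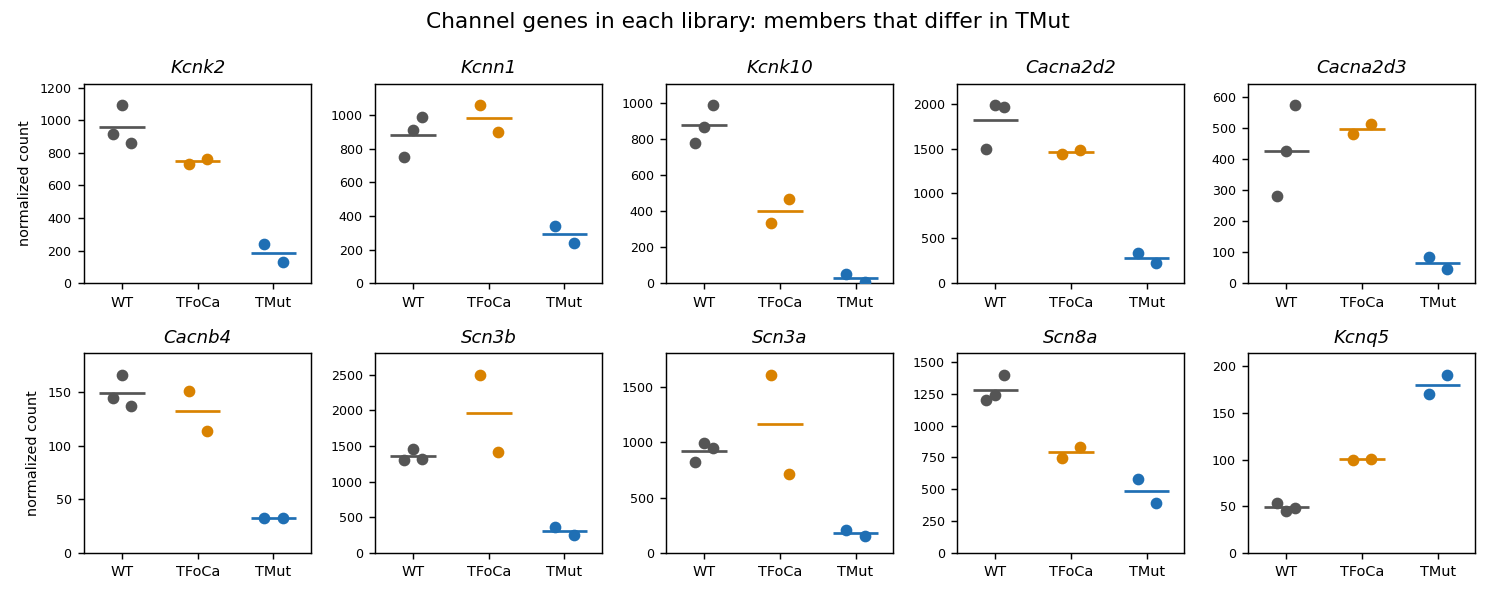
Normalized counts (vertical axes, linear from 0) of 10 channel genes in each library by genotype; points are libraries and bars are group means. In 9 of the panels both TMut points lie below all WT points, and for Kcnq5 both lie above them.

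Calcium channel pores of presynaptic terminals fell in TMut, and no L-type gene was called. All 3 Cav2 genes were called. Cacna1e (R-type) had 168, 193 and 228 normalized counts in WT, 297 and 370 in TFoCa, and 34.6 and 12 in TMut, at -3.19 ± 0.42 (adjusted p = 0.00116). Cacna1b (N-type) had 984, 942 and 1016 normalized counts in WT and 620 and 496 in TMut, at -0.82 ± 0.15 (adjusted p = 0.00417). Cacna1a (P/Q-type) had 1458, 1509 and 1644 normalized counts in WT and 1200 and 1178 in TMut, a small change of -0.37 ± 0.11 (adjusted p = 0.0365) that was lost without WT1, WT2, WT3, TMut1 or TMut2 (adjusted p = 0.0527, 0.0963, 0.127, 0.096 and 0.136) and under voom (adjusted p = 0.0612). The 3 Cav1 (L-type) genes were not called: Cacna1c had 1143, 1073 and 1164 normalized counts in WT and 1451 and 1250 in TMut, at 0.26 ± 0.11 (adjusted p = 0.108). The T-type Cav3 genes diverged. Cacna1i had 146, 193 and 245 normalized counts in WT and 27.6 and 9.6 in TMut, at -3.46 ± 0.46 (adjusted p = 0.00117), and Cacna1h had 3414, 3565 and 3754 normalized counts in WT and 2420 and 2216 in TMut, at -0.63 ± 0.19 (adjusted p = 0.0312), the latter lost without WT1, WT2, WT3, TMut1 or TMut2 (adjusted p = 0.059, 0.0791, 0.0926, 0.074 and 0.147). Cacna1g rose, as given below with TFoCa.

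The alpha2delta subunits, extracellular proteins that raise the surface density of Cav1 and Cav2 channels, gave 3 falls of 4 in TMut and 1 rise in TFoCa. Cacna2d2 had 1494, 1985 and 1965 normalized counts in WT, 1440 and 1482 in TFoCa, and 339 and 225 in TMut. Its TMut libraries were below all others, at -2.70 ± 0.20 (adjusted p = 0.000159), the smallest adjusted p of any member that fell. Cacna2d3 had 281, 427 and 574 normalized counts in WT, 481 and 512 in TFoCa, and 82.9 and 45.6 in TMut, at -2.72 ± 0.36 (adjusted p = 0.00108). Cacna2d1, the main subunit of muscle and sensory neurons, had 1993, 1983 and 2029 normalized counts in WT, 4085 and 3564 in TFoCa, and 2448 and 1796 in TMut. It was not called in TMut (adjusted p = 0.739), but rose in TFoCa by 0.93 ± 0.14 (adjusted p = 0.0103). Cacna2d4 was low, with 2 reads over both TMut libraries. The bases just upstream of the start of these 3 genes are shown because the genes moved apart within 1 subfamily, and because CG dinucleotides, in capitals, are the sites where TET enzymes act on methylated cytosine. They are RefSeq windows of build GRCm38.p6, 250 bases that end at the start site, read 5′ to 3′ on the strand of the gene, for Cacna2d1 at chr5:15934441-15934690 (plus strand), Cacna2d2 at chr9:107399630-107399879 (plus strand) and Cacna2d3 at chr14:29721865-29722114 (minus strand).
Cacna2d1: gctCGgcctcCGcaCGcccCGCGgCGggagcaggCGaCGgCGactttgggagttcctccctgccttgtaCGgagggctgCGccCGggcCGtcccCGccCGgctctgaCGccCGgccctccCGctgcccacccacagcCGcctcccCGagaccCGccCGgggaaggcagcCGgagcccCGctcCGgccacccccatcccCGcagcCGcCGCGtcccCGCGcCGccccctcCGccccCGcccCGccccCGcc
Cacna2d2: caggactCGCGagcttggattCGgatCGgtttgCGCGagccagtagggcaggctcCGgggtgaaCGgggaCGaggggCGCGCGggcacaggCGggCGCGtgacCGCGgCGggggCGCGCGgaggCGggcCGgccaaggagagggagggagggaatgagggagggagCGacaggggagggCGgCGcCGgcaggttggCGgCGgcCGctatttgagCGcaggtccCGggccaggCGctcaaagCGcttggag
Cacna2d3: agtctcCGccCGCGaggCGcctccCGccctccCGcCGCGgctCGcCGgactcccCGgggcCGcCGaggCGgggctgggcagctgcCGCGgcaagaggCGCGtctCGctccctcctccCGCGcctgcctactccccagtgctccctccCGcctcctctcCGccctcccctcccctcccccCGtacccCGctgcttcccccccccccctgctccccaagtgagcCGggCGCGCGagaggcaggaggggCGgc
They hold 36, 34 and 30 CG dinucleotides. Over 27025 genes with such a window (the first listed start of each) the median was 6, the quartiles were 2 and 16, and 91.7% held at least 1. All 3 counts lie above the upper quartile, in the gene that rose in TFoCa and in those that fell in TMut. DNA modification was not measured in these libraries, and only 83 of the 116 members (71.6%) had a window, so no comparison of promoter sequence over the members was made.

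Of the 4 calcium channel beta genes 3 fell in TMut. Cacnb4, a beta subunit of neurons, had 144, 166 and 137 normalized counts in WT, 151 and 114 in TFoCa, and 32.3 and 32.4 in TMut, at -2.16 ± 0.27 (adjusted p = 0.000879). As with Kcnk2, part of this gene (15.99% of exon bases) overlaps an opposite-strand transcript. Cacnb1, the beta subunit of skeletal muscle, had 1572, 1388 and 1559 normalized counts in WT and 1006 and 619 in TMut, at -0.93 ± 0.21 (adjusted p = 0.0107), and Cacnb2 fell by 0.84 (adjusted p = 0.00994); both calls ended without TMut2 (adjusted p = 0.054 and 0.0519). Without TMut1 the change of Cacnb1 was -1.28 and without TMut2 it was -0.58. Cacnb3, the highest beta subunit per length, had 4586, 4926 and 4613 normalized counts in WT, 6934 and 4355 in TFoCa, and 4672 and 4430 in TMut and did not pass the test in any comparison. Of 8 gamma genes 5 fell in TMut. Cacng4 had 5246, 4372 and 3978 normalized counts in WT, 3900 and 2971 in TFoCa, and 1501 and 619 in TMut, at -2.22 ± 0.34 (adjusted p = 0.00192). Cacng7 had 4621, 4476 and 4271 normalized counts in WT and 2996 and 3185 in TMut, at -0.53 ± 0.10 (adjusted p = 0.00456). Cacng2 (stargazin), which carries AMPA receptors to synapses, fell by 4.76 (adjusted p = 0.00134), Cacng3 fell by 3.89 (adjusted p = 0.00139) and Cacng5 fell by 3.84 (adjusted p = 0.00184), each to at most 16.1 normalized counts in both TMut libraries.

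Of 8 sodium channel pores 5 fell and 1 rose in TMut, and of 4 beta subunits 2 fell and 1 rose. Scn3a (Nav1.3), the pore of immature neurons, had 821, 991 and 951 normalized counts in WT, 1612 and 717 in TFoCa, and 210 and 149 in TMut. TFoCa1 was the highest library and both TMut libraries the lowest, at -2.37 ± 0.33 (adjusted p = 0.00131). Scn8a (Nav1.6), the pore of the axon initial segment, had 1202, 1238 and 1400 normalized counts in WT, 749 and 830 in TFoCa, and 577 and 390 in TMut, at -1.43 ± 0.18 (adjusted p = 0.001). Scn2a (Nav1.2) had 230, 371 and 331 normalized counts in WT and 134 and 78 in TMut, at -1.57 ± 0.38 (adjusted p = 0.0146), lost without WT2, WT3 or TMut2 (adjusted p = 0.0547, 0.0529 and 0.0977). Scn1a (Nav1.1), the pore of inhibitory interneurons, had 64.3, 97.6 and 110 normalized counts in WT and 46.1 and 9.6 in TMut, at -2.0 ± 0.63 (adjusted p = 0.0382), lost without WT1, WT2, WT3 or TMut2 (adjusted p = 0.0555, 0.1, 0.112 and 0.201), and under edgeR and voom (adjusted p = 0.0688 and 0.0522). Without TMut2 the change of Scn1a was -0.93 and without TMut1 it was -3.08. Scn11a (Nav1.9) had 58.8, 124 and 194 normalized counts in WT and 4.61 and 0 in TMut, at -5.58 ± 0.97 (adjusted p = 0.00357), with wide spread among WT libraries; with a pseudocount of 8 the change was -3.60. Scn3b had 1303, 1454 and 1323 normalized counts in WT, 2499 and 1418 in TFoCa, and 362 and 249 in TMut, at -2.18 ± 0.25 (adjusted p = 0.000665), and Scn2b fell by 1.04 (adjusted p = 0.00691). Scn7a, a sodium-sensing pore of glia and non-neuronal tissue, had 7.85, 16.5 and 2.3 normalized counts in WT, 86.2 and 63.3 in TFoCa, and 281 and 108 in TMut, at 4.46 ± 0.73 (adjusted p = 0.0028) from few WT reads.

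Markers of neurons moved with these falls. Of 15 neuron markers 13 fell in TMut and none rose (median log2 fold change -2.87), and all were detected in every TMut library. Of 7 astrocyte markers 6 fell and Gja1 rose (a call that ended without TMut2, adjusted p = 0.0597), and of 11 neural stem cell markers 9 fell and 1, Vim, rose. Beside the rises, 4 of 7 smooth muscle and pericyte markers rose and 1 fell, and the list summed to 26478 and 31157 normalized counts in TMut against 6340 to 6974 in WT. Of 10 fibroblast and mesenchyme markers 5 rose and 1 fell. Epithelial markers rose for 4 of 5 genes, to a sum of 9253 in TMut1 and 22029 in TMut2, against 3125 to 5461 in WT. The part of these cell type markers in the channel results was not tested.

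The comparison of TFoCa with WT asks the same of the TFoCa genotype. There 11 members rose (9.48%) and 1 fell (0.862%), where 5.25% of all genes tested rose and 3.52% fell. Both directions together took in 12 members, where 8.77% of all genes tested were called. The median log2 fold change was 0.10, against -0.019 over all genes, and libraries did not overlap for 53 members (45.7%), against 45.2%. The rises were 5 of 25 calcium, 4 of 79 potassium and 2 of 12 sodium channel genes. The count of 11 depended on single libraries: leaving out WT1 gave 3, WT2 gave 5, WT3 gave 3 and TFoCa1 gave 7. Only Cacna1g, Cacna2d1 and Kcnj2 were called without each library in turn.

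Cacna1g, the T-type pore with the highest WT level per length, had 4250, 3936 and 4042 normalized counts in WT, 9881 and 8677 in TFoCa, and 5768 and 5045 in TMut. Both TFoCa libraries stood well above every WT library, at 1.18 ± 0.10 (adjusted p = 0.00217), and TMut libraries lay between the 2 groups, at 0.40 ± 0.10 (adjusted p = 0.0184) against WT. The latter call was lost without WT2, WT3 or TMut1 (adjusted p = 0.0717, 0.0633 and 0.11). Kcnj2 (Kir2.1), an inward rectifier of muscle and neurons, had 59.6, 92.5 and 75.9 normalized counts in WT, 301 and 326 in TFoCa, and 180 and 103 in TMut, a rise of 2.05 ± 0.32 (adjusted p = 0.0108) in TFoCa. In TMut it was at 0.86 ± 0.32 (adjusted p = 0.0683) and not called. Cacna1c (Cav1.2), the L-type pore of heart, smooth muscle and neurons, had 1143, 1073 and 1164 normalized counts in WT and 1693 and 1666 in TFoCa. The rise was modest but without overlap, at 0.58 ± 0.11 (adjusted p = 0.0222), and was lost without WT1, WT2, WT3 or TFoCa1 (adjusted p = 0.0654, 0.0959, 0.073 and 0.0517). Kcna6 (Kv1.6) had 145, 209 and 224 normalized counts in WT, 438 and 386 in TFoCa, and 210 and 146 in TMut, at 1.11 ± 0.27 (adjusted p = 0.0436), lost without WT1, WT2, WT3, TFoCa1 or TFoCa2 (adjusted p = 0.112, 0.108, 0.0869, 0.112 and 0.0782). An opposite-strand transcript shares 39.61% of the exon bases of Kcna6, with the same limit on strand.

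In TFoCa 3 subunits of the skeletal muscle calcium channel rose. Cacna1s (Cav1.1), the voltage sensor of muscle contraction, had 43.9, 27.3 and 43.7 normalized counts in WT, 99.6 and 209 in TFoCa, and 38 and 26.4 in TMut. TFoCa2 was highest and TFoCa1 next, at 1.92 ± 0.44 (adjusted p = 0.0363). Its call was lost without WT1, WT2, WT3 or TFoCa2 (adjusted p = 0.0882, 0.12, 0.0931 and 0.131), and an opposite-strand transcript shares 19.98% of its exon bases. Cacng1, the gamma subunit of the same channel, had 21.2, 30.4 and 39.1 normalized counts in WT, 93.9 and 145 in TFoCa, and 17.3 and 12 in TMut, at 1.95 ± 0.43 (adjusted p = 0.0311), lost without WT1, WT2, WT3 or TFoCa2 (adjusted p = 0.0975, 0.1, 0.0673 and 0.113). Cacna2d1, the alpha2delta subunit of that complex, rose as given above, and its beta subunit Cacnb1 had 1572, 1388 and 1559 normalized counts in WT and 1753 and 2214 in TFoCa and was not called (adjusted p = 0.294). Skeletal muscle markers also rose in TFoCa: 6 of 8 rose and none fell (median log2 fold change 2.17). Their sum was 6323 in TFoCa1 and 20606 in TFoCa2, against 1939 to 3281 in WT and 3422 to 4789 in TMut. Cacna1s and Cacng1 were, like this marker sum, higher in TFoCa2 than in TFoCa1. Cacna2d1 was not (4085 in TFoCa1 and 3564 in TFoCa2). Ryr1, the release channel that Cav1.1 opens, is among these markers and had 280, 302 and 260 normalized counts in WT, 485 and 578 in TFoCa, and 344 and 390 in TMut, at 0.91 ± 0.17 (adjusted p = 0.0198), lost without WT1, WT2, WT3 or TFoCa2 (adjusted p = 0.0656, 0.0658, 0.082 and 0.0597). Of the fibroblast and mesenchyme markers 9 of 10 also rose in TFoCa. The part of these markers in the channel results was not tested.

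**Figure D4:**
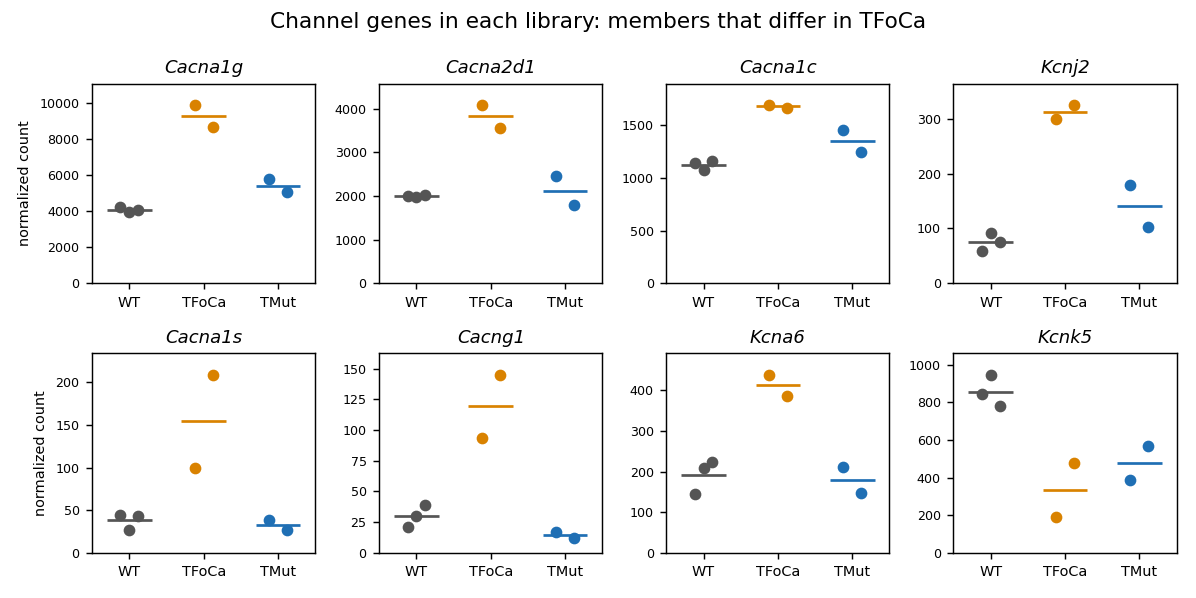
Normalized counts (vertical axes, linear from 0) of 8 channel genes in each library by genotype; points are libraries and bars are group means. Both TFoCa points lie above all WT points in 7 panels, and below them for Kcnk5.

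Of the lower TFoCa calls, Kcnk13, a two-pore channel of microglia, had 11, 1.27 and 6.9 normalized counts in WT and 50.8 and 57.2 in TFoCa, at 3.20 ± 0.75 (adjusted p = 0.0391); the WT values rest on few reads and the call was lost without WT1, WT2, WT3, TFoCa1 or TFoCa2 (adjusted p = 0.0502, 0.0721, 0.0902, 0.09 and 0.111). The 1 gene that fell was Kcnk5 (TASK-2), an acid-sensitive two-pore channel. It had 843, 947 and 783 normalized counts in WT, 193 and 480 in TFoCa, and 389 and 569 in TMut, at -1.49 ± 0.36 (adjusted p = 0.0444), lost without WT1, WT2, WT3 or TFoCa1 (adjusted p = 0.119, 0.132, 0.11 and 0.0766), and under edgeR (adjusted p = 0.0649). Without TFoCa2 its change was -2.14 and without TFoCa1 it was -0.83. Pluripotent cell markers, 6 of 6, fell in TFoCa as well, to sums of 538 and 752 normalized counts against 6646 to 14020 in WT. In TMut they summed to 6231 and 22651, and none was called against WT. The part of these markers in the level of Kcnk5 was not tested. Members with large but uncalled values included Kcnab1, a Kv beta subunit, with 32.9, 20.9 and 39.1 normalized counts in WT and 118 and 87.6 in TFoCa (adjusted p = 0.0553), named after its values were seen.

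Members that rose against WT in both mutant genotypes include Scn7a, Kcne1l and Cacna1g. The 2 comparisons share the WT libraries, and the share of all genes called in both is not given here. Scn7a rose by 3.23 (adjusted p = 0.0354) and 4.46, with the TFoCa call lost without WT1, WT3, TFoCa1 or TFoCa2 (adjusted p = 0.0952, 0.0737, 0.101 and 0.0751). Kcne1l, a single-span subunit that modulates Kv7 channels, had 4.71, 8.87 and 9.2 normalized counts in WT, 38.3 and 99.8 in TFoCa, and 46.1 and 26.4 in TMut, at 2.92 ± 0.57 (adjusted p = 0.0215) and 2.11 ± 0.57 (adjusted p = 0.0216). Its TFoCa call was lost without WT1, WT2, WT3 or TFoCa2 (adjusted p = 0.0694, 0.065, 0.0595 and 0.0799), and its TMut call without WT1 or TMut1 (adjusted p = 0.0602 and 0.109). The values of Cacna1g are given above.

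The direct comparison of TMut with TFoCa asks how the mutant genotypes differ. Here 51 members fell (44%) and 2 rose (1.72%), where 18.5% of all genes tested fell and 17.3% rose, with a median of -1.0 against -0.002. Libraries did not overlap for 77.6% of the members and 67.5% of all genes tested. By ion 27 of 79 potassium, 18 of 25 calcium and 6 of 12 sodium channel genes were lower in TMut. The lowest count was 39, without TMut2, and 35 of the 51 were called without each library in turn. This comparison shares the TMut libraries with TMut versus WT, so the calls of the 2 comparisons are not independent. All 3 Cav3 and all 3 SK genes were called lower in TMut than in TFoCa. The 3 Cav2 and 4 alpha2delta genes were also called, but of these Cacna1a lost the call without WT1, WT2, WT3, TFoCa2, TMut1 or TMut2 (adjusted p = 0.0653, 0.0953, 0.0772, 0.15, 0.106 and 0.158), and under TMM factors, edgeR, voom and the fit to these 2 genotypes alone (adjusted p = 0.0522, 0.0514, 0.0684 and 0.147). Cacna1b lost it without TFoCa1 or TMut2 (adjusted p = 0.0724 and 0.111) and in the fit to 2 genotypes (adjusted p = 0.0974), and Cacna2d4 without TMut2 (adjusted p = 0.0679) and in the same fit (adjusted p = 0.0638). Cacng3 had 45.5, 137 and 156 normalized counts in WT, 288 and 291 in TFoCa, and 4.61 and 7.2 in TMut, with both TFoCa libraries highest and both TMut libraries near 0, at -5.42 ± 0.60 (adjusted p = 0.00166). Kcns2 had 27.5, 31.7 and 32.2 normalized counts in WT, 54.6 and 92.5 in TFoCa, and 4.61 and 2.4 in TMut, at -4.05 ± 0.49 (adjusted p = 0.00204). Kcnip1 had 81.6, 114 and 136 normalized counts in WT, 264 and 162 in TFoCa, and 13.8 and 26.4 in TMut, at -3.37 ± 0.45 (adjusted p = 0.0024). The members that rose in TFoCa and were not called in TMut versus WT were in part lower in TMut than in TFoCa: Cacna2d1, Cacng1, Cacna1s, Kcna6 and Kcnj2 were at log2 changes of -0.86, -2.93, -2.15, -1.22 and -1.20 (adjusted p = 0.00598, 0.00394, 0.0127, 0.016 and 0.0327). Calls were lost for Cacna1s without TFoCa2 or TMut2 (adjusted p = 0.0515 and 0.065), for Kcna6 without TFoCa1 or TMut2 (adjusted p = 0.0549 and 0.0858), and for Kcnj2 without WT3, TFoCa1, TFoCa2 or TMut2 (adjusted p = 0.059, 0.0716, 0.0919 and 0.161) and in the fit to these 2 genotypes alone (adjusted p = 0.0762). Of the 2 that were higher in TMut, Kcnd1 was at 0.65 ± 0.17 (adjusted p = 0.0241). The call of Kcnd1 was lost without WT2, WT3, TFoCa1 or TMut1 (adjusted p = 0.0535, 0.0514, 0.0511 and 0.0929) and in the fit to these 2 genotypes alone (adjusted p = 0.102), and the count of 2 was 1 without WT3 and 4 without TFoCa1. Kcnt2, a sodium-activated potassium channel, had 178, 353 and 397 normalized counts in WT, 448 and 792 in TFoCa, and 242 and 168 in TMut, at -1.56 ± 0.44 (adjusted p = 0.0281), lost without TFoCa2 or TMut2 (adjusted p = 0.118 and 0.138).

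Cell type markers moved in this comparison too. Of 15 neuron markers 12 were lower in TMut than in TFoCa and none higher, of 8 skeletal muscle markers 4 were lower and none higher, and of 11 neural stem cell markers 9 were lower. All 6 pluripotent cell and all 5 epithelial markers were higher in TMut. Their part in the channel results, the falls of Cacna1s and Cacng1 included, was not tested.

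Members called in no comparison include Cacnb3, Kcnip3, Kcnmb4, Kcng1, Kcnj8 and Kcnrg. Kcnrg, a regulator that holds Kv1 channels inside the cell, had 14.9, 34.9 and 24.2 normalized counts in WT, 22 and 20.7 in TFoCa, and 13.8 and 4.8 in TMut.

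Genes that work with these channels are given next from lists of related genes, beside the 20.4% of all genes tested that fell in TMut and the 18.4% that rose. Of 25 channel partners 13 fell (52%) and 3 rose (12%), with a median of -1.14. Ank3 (ankyrin-G), which anchors Nav and Kv7 channels at the axon initial segment, had 2715, 2765 and 2959 normalized counts in WT, 2788 and 2192 in TFoCa, and 956 and 1005 in TMut, at -1.52 ± 0.12 (adjusted p = 0.000197). Rem2, a small GTPase that inhibits calcium channels, had 1120, 1452 and 1421 normalized counts in WT, 1231 and 1120 in TFoCa, and 297 and 175 in TMut, at -2.53 ± 0.23 (adjusted p = 0.000276). Rest, the repressor of neuronal channel genes outside neurons, had 2485, 2798 and 2537 normalized counts in WT, 2924 and 2448 in TFoCa, and 4194 and 4958 in TMut, at 0.81 ± 0.12 (adjusted p = 0.00208), and is named after its values were seen. Of 29 other cation channels 10 fell (34.5%) and 4 rose (13.8%), with a median of -0.26, with Asic4 at 542, 735 and 946 normalized counts in WT and 10.4 and 14.4 in TMut, a change of -5.77 ± 0.28 (adjusted p = 4.65e-05). Of 24 pumps and exchangers 8 fell (33.3%) and 6 rose (25%), with a median of -0.16. Of 21 genes of intracellular calcium release 1 fell (4.76%) and 6 rose (28.6%), with a median of 0.24, with the kinase Camk2a at -1.50 ± 0.23 (adjusted p = 0.00191) and its paralog Camk2d at 0.86 ± 0.13 (adjusted p = 0.00181).

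In TFoCa the shares of the same lists are read beside the 5.25% of all genes tested that rose and the 3.52% that fell. Channel partners gave 1 rise (4%) and 1 fall (4%) of 25: Cntnap2, which clusters Kv1 channels on axons, had 3524, 3084 and 2835 normalized counts in WT, 1232 and 1641 in TFoCa, and 1083 and 855 in TMut, at -1.14 ± 0.17 (adjusted p = 0.00996), and Gem, a calcium channel inhibitor, had 213, 254 and 232 normalized counts in WT and 715 and 398 in TFoCa, at 1.20 ± 0.27 (adjusted p = 0.0331), lost without WT1, WT2, WT3 or TFoCa1 (adjusted p = 0.105, 0.0883, 0.101 and 0.0808), with a change of 0.77 without TFoCa1. Other cation channels gave 3 rises (10.3%) and 1 fall (3.45%) of 29, led by Piezo2, a touch receptor, with 386, 412 and 549 normalized counts in WT, 1960 and 1261 in TFoCa, and 1768 and 1232 in TMut, at 1.82 ± 0.25 (adjusted p = 0.0079). Pumps and exchangers gave 4 rises (16.7%) and no fall of 24, and calcium release genes 3 rises (14.3%) and no fall of 21, with Mcu, the mitochondrial calcium uniporter, at 0.77 ± 0.11 (adjusted p = 0.00883).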

How the data were processed

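RNA of neural stem cells was sequenced in 7 libraries. The submitters' processing notes name, for the authors' steps, the build mm39 and the tools DESeq2, featureCounts, SAMtools, STAR (2.7.3a) and Trim Galore (0.6.5); settings, strand and annotation are not given in the sources used here. The deposited values are normalized counts (signal), gene counts divided by a size factor of each library. Whole reads were recovered within 0.001 read for 100% of values, from the steps between low values; of recovered counts from 1 to 20, 70.29 to 79.32% were even. In WT replicate 2 the smallest value corresponds to 2 reads.

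limma 3.58.1 (R 4.3.3) was fitted to log2(normalized count + 1) of all 7 libraries with a trended prior and 4 residual degrees of freedom, over 18134 of 18145 genes with at least 10 normalized counts in at least 2 libraries. Calls were made where the adjusted p (Benjamini-Hochberg) was under 0.05. A log2 fold change on this scale understates the change of low genes. Alternatives were other pseudocounts and filters, TMM factors, edgeR 4.0.16, DESeq2 1.42.0 and voom on the recovered reads, a fit to 2 genotypes, a replicate block, and leaving out each library. On simulated counts with 100 genes changed at each size, the test recovered 49% (log2 change of 1) and 89% (log2 change of 2) for TFoCa versus WT, and 53% and 90% for TMut versus WT.

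The members and gene lists were chosen with earlier results of these data known. The rule for naming took, in each comparison and direction, the called members with the smallest adjusted p (up to 5 potassium, 3 calcium and 2 sodium), the member of each subfamily with the highest mean count, and members called in both mutants; it also allowed the 2 of each related list with the smallest adjusted p in each comparison. It named 44 members. The others, such as Cacna1b, Cacna1s, Cacng1, Kcnj9, Kcnj10, Kcnn2, Kcnq3, Scn1a and Scn2a, were named after their values were seen, to complete their subfamilies. Results of some genes are not reported here.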

Additional observations from a re-analysis of the deposited data

How the results depend on the processing

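The falls in TMut kept their direction in every alternative run. For TMut versus WT (53) their number was 42 to 44 without 1 WT library and 54 in the fit to 2 genotypes. For TMut versus TFoCa (51) it was 45 or 46 without 1 WT library and 35 in the fit to 2 genotypes. The counts of rises, and of the 1 fall in TFoCa, also depended on the choice, and the cause was not tested. For the 11 rises in TFoCa the count was 19 with DESeq2 and 3 to 13 without single libraries; for the 1 fall there it was 0 with edgeR, 4 with DESeq2, 2 with voom, 3 in the fit to 2 genotypes and 0 to 3 without single libraries. For the 11 rises in TMut it was 7 among the 88 members with a mean of 50 or more, where fewer genes are tested, and 7 to 15 without single libraries. For the 2 rises of TMut over TFoCa it was 6 with a pseudocount of 8, 5 with edgeR, 5 with DESeq2, 4 with voom, 1 in the fit to 2 genotypes and 1 to 4 without single libraries. Kcns3 in TMut versus TFoCa, not called at a log2 change of -0.00, was called at 1.07 without TFoCa replicate 1 and at -1.08 without TFoCa replicate 2. TMM factors moved the median of all genes by 0.0105 to 0.0329 on the log2 scale.

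Replicate numbers were not taken as pairs, since deviations of same-numbered libraries correlated by only 0.0192 to 0.1849. With replicates 1 and 2 as a block, 2 members rose and 0 fell in TFoCa versus WT, 7 rose and 40 fell in TMut versus WT, and 3 rose and 46 fell in TMut versus TFoCa.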

Other observations

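The 2 lines of 1 mutant genotype stood far apart for some members, some of them already named above. The examples here were chosen after their values were seen, and of these examples Kcnh4 was called in that genotype against WT. Kcnh1, an EAG channel, had 70.9 normalized counts in TFoCa replicate 1 and 409 in replicate 2. Kcns3, a silent Kv subunit, had 456 and 102, and Kcnj8 had 191 and 29.2 in the same libraries. In TMut replicates 1 and 2, Kcnk1 (TWIK-1) had 227 and 662 normalized counts, Kcnk9 (TASK-3) 173 and 33.6, Kcnc4 (Kv3.4) 29.9 and 144, and Kcnh4 (an ELK channel) 123 and 19.2.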
